A study of Mus musculus with 13 samples.

Results

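The intestinal identity transcription factors examined here were 9 genes, taken by symbol from a table of 21868 gene symbols: the caudal homeobox genes Cdx1 and Cdx2, the nuclear receptors Hnf4a and Hnf4g, the zinc finger genes Gata4, Gata5 and Gata6, the Krüppel-like factor Klf5 and the cut-homeobox gene Onecut2. All 9 passed the filter on low counts. Messenger RNA was counted in mouse jejunal epithelial cells sorted for EpCAM and against the leukocyte antigens CD45, CD11b, CD3 and B220, in 13 libraries of 5 groups. The BSF, LSF and DSF groups ate in set windows for 2 weeks, with times given as zeitgeber hours (ZT). Breakfast skipping (BSF, 2 libraries) was fed from ZT16 to ZT24. Lunch skipping (LSF, 3 libraries) was fed from ZT12 to ZT16 and again from ZT20 to ZT24. Dinner skipping (DSF, 2 libraries) was fed from ZT12 to ZT20. A group labelled BSF_C (3 libraries) is described as breakfast skipping together with control, with no feeding window or duration, and con (3 libraries) is the control. The 4 groups other than con are called feeding groups here, BSF_C included. No genotype, strain, age or drug separates the groups in the labels, and neither the feeding hours of con and BSF_C nor the time of day at which tissue was taken is given in the sources used here.

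CDX2 specifies intestinal over gastric fate in the embryo and maintains it in the adult, and CDX1 is its close relative. HNF4A and HNF4G bind the same DNA sites in intestinal enhancers and act together on absorptive and lipid-handling genes. GATA4 sets proximal against ileal character along the small intestine, GATA6 acts in crypts and in secretory lineages, KLF5 drives crypt proliferation, and ONECUT2 is a duodenal and jejunal factor.

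The con libraries stood apart from the rest. They held between 4851239 and 5202146 counts, against 7127769 to 8589351 elsewhere, and between 14688 and 14957 detected genes, against 16345 to 16620. All 7 defining epithelial markers were present in every group, summing to between 5788 and 7002 CPM (counts relative to the scaled library total). Single markers were less even than the sum. The mean of Cdh1 was 2020 CPM in con and between 718 and 851 CPM in the other groups. Epcam went the other way, with a mean of 193 CPM in con and between 322 and 375 CPM in the other groups. The 10 skin keratinocyte markers summed to between 401 and 484 CPM in con and to between 2.95 and 4.68 CPM elsewhere. The 10 heart muscle markers summed to between 7.07 and 11.1 CPM in con, where 7 of them had no count, and to between 88.7 and 280 CPM elsewhere. Sums in con were also below those elsewhere for fibroblast and stromal markers (0 to 0.619 against 10.5 to 50.1 CPM), kidney tubule markers (11.8 to 21.2 against 50.3 to 130 CPM) and, despite the sort, leukocyte markers (125 to 132 against 217 to 332 CPM). Not every leukocyte marker followed that sum. Itgae, Csf1r and Itgam averaged 85.9, 29.5 and 12.1 CPM in con and 46.9, 18.8 and 7.39 CPM in BSF. The other 6 leukocyte markers that passed the filter were lower in con than in BSF. Single genes weighed heavily in the kidney tubule and heart muscle sums. Gpx3 averaged 14.5 CPM in con and 38.2 CPM in BSF, where the kidney tubule sum averaged 15.6 and 55.1 CPM. Myh6 had no count in con and averaged 56.4 CPM in BSF. Tnnt2 and Myl7 differed less, averaging 6.56 and 1.86 CPM in con and 6.72 and 2.07 CPM in BSF. The labels name no batch, so feeding cannot be told apart from any batch, or any difference in tissue or cell makeup, shared by the con libraries, and the comparisons with con share its 3 libraries. The replicates are labelled as biological, with no word on animals or pools, so each p-value covers only how far these libraries vary.

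RefSeq promoter windows on GRCm38.p6 were at hand for only 3 of the 9 members, Hnf4a, Cdx2 and Gata5, and all of these are shown. The 3 are among the 6 members below con in every feeding group, which played no part in the choice. The 250 bases before each annotated start are printed 5′ to 3′ on the gene's strand, with capitals at motif matches found on either strand. The letters searched were AGATAA for zinc fingers of the GATA family, GTTAAT for HNF1, CAAAGTCCA for HNF4, TTTATNG for CDX and GGGCGGGG for KLF and SP factors. Hnf4a has 2 windows, chr2:163506607-163506856 (upstream) and chr2:163546905-163547154 (downstream, within the annotated gene), both on the plus strand. The Cdx2 window is chr5:147307250-147307499 and the Gata5 window is chr2:180334680-180334929, both on the minus strand. RefSeq starts differ from the GENCODE gene bounds given below. The last bases of the upstream Hnf4a window and of the Cdx2 and Gata5 windows thus lie within those bounds.
Hnf4a upstream window: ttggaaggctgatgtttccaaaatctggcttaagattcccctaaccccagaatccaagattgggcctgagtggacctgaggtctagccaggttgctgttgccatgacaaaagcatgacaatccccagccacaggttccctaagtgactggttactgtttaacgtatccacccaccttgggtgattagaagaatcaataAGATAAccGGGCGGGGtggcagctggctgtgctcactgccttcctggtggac
Hnf4a downstream window: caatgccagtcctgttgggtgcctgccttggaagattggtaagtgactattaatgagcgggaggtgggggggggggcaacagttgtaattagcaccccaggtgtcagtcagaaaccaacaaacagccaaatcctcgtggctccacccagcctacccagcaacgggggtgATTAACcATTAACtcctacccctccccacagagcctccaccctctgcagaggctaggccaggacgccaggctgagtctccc
Cdx2 window: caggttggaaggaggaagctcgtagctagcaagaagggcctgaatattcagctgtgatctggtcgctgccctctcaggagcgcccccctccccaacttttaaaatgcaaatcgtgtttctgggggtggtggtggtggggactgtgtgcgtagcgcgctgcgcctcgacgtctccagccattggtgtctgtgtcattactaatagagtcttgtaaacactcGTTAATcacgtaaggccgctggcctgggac
Gata5 window: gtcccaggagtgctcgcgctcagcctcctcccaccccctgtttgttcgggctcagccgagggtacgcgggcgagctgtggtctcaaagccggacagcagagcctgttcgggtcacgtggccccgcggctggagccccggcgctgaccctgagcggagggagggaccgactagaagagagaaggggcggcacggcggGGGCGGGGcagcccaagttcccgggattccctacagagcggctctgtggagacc

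In the upstream Hnf4a window, AGATAA began 52 bases and GGGCGGGG 44 bases before the start, with all distances taken from RefSeq starts. The downstream Hnf4a window held GTTAAT on the opposite strand in 2 places, 81 and 74 bases before the start. GTTAAT began 30 bases before the Cdx2 start and GGGCGGGG 54 bases before the Gata5 start. Of all 32851 RefSeq promoter windows of this length, 9.99% held AGATAA, 6.43% GTTAAT, 0.384% CAAAGTCCA, 9.81% TTTATNG and 16.1% GGGCGGGG. These matches describe letters in the windows only. The counts are per gene and do not separate RNA started at the 2 Hnf4a windows.

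The members lie on 5 chromosomes of the mouse genome (GRCm38, GENCODE M21). Hnf4a lies at chr2:163506808-163572910 on the plus strand and Gata5 at chr2:180325133-180334699 on the minus strand. Hnf4g lies at chr3:3508030-3658052 on the plus strand and Cdx2 at chr5:147300805-147307270 on the minus strand. Gata4 lies at chr14:63198922-63271692 on the minus strand and Klf5 at chr14:99298691-99315036 on the plus strand. Gata6, Cdx1 and Onecut2 lie on chromosome 18. Gata5 shares 258 exon bases with the antisense gene Gata5os and Gata6 shares 93 with 1010001N08Rik on the other strand. Whether the counting used strand is not given in the sources used here, and reads of these partners cannot be told apart.

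Hnf4a was the most abundant of the 9 in every group when levels were divided by exon length. In con it stood at 703 CPM per kilobase of exon, followed by Cdx1 at 207, Cdx2 at 190, Gata4 at 141 and Klf5 at 134. Gata5 followed at 55.0, Hnf4g at 47.8, Gata6 at 27.6 and Onecut2 at 8.31 CPM per kilobase. The first 3 places were the same in every group. Hnf4g changed places most, ranking 7 of 9 in con, 5 in BSF and BSF_C, 6 in DSF and 4 in LSF, where it reached 116 CPM per kilobase.

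**Figure D1:**
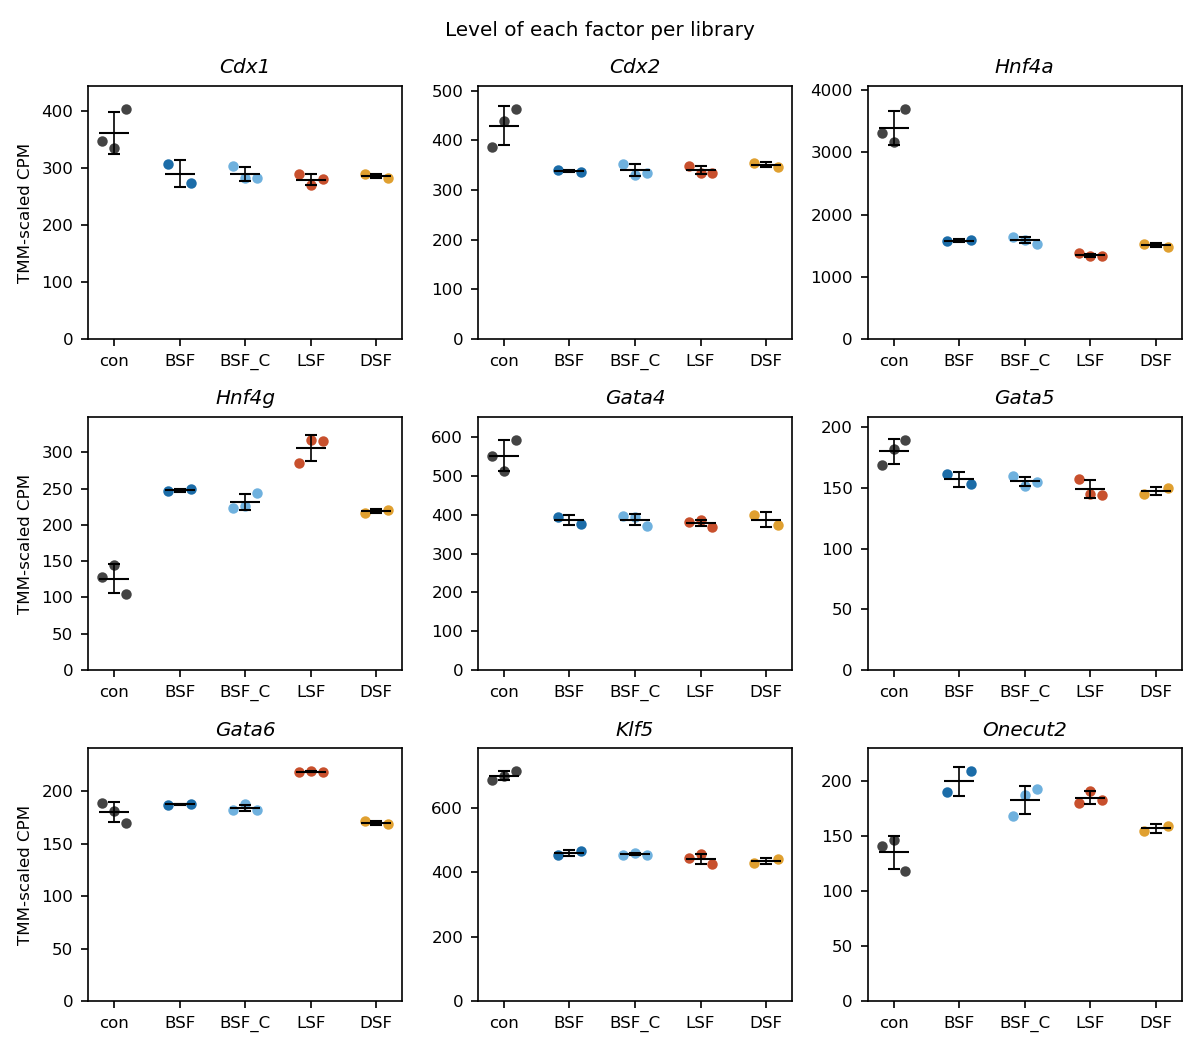
Level of each of the 9 factors in each library, in CPM scaled by trimmed means on the vertical axis, by group on the horizontal axis; points are libraries, and the bars give the group mean and SD (n = 2 or 3). Con stands alone for Hnf4a, Hnf4g, Gata4, Klf5, Cdx1, Cdx2, Gata5 and Onecut2, and LSF stands alone for Gata6, Hnf4g and Hnf4a.

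Against con, Hnf4a, Klf5, Gata4, Cdx1, Cdx2 and Gata5 fell and Hnf4g and Onecut2 rose in each feeding group, while Gata6 rose in LSF. Calls are those of edgeR's quasi-likelihood test at a Benjamini-Hochberg adjusted p under 0.05, in one fit of all libraries. In BSF, 2 members were higher and 6 lower, where 38.3% of the 14300 tested genes were higher and 31.9% lower. In BSF_C, again 2 were higher and 6 lower, against 39.8% and 33.2% of tested genes. In LSF, 3 were higher and 6 lower, against 38.9% and 33%. In DSF, 2 were higher and 6 lower, against 36.6% and 31.1%. Most tested genes were thus called in these comparisons, members or not. The median log2 fold change of the members was -0.32, -0.32, -0.34 and -0.29 in BSF, BSF_C, LSF and DSF, beside 0.11, 0.12, 0.10 and 0.10 for all tested genes. Scaling by library totals alone moved these all-gene medians to 0.29, 0.28, 0.20 and 0.26.

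**Figure D2:**
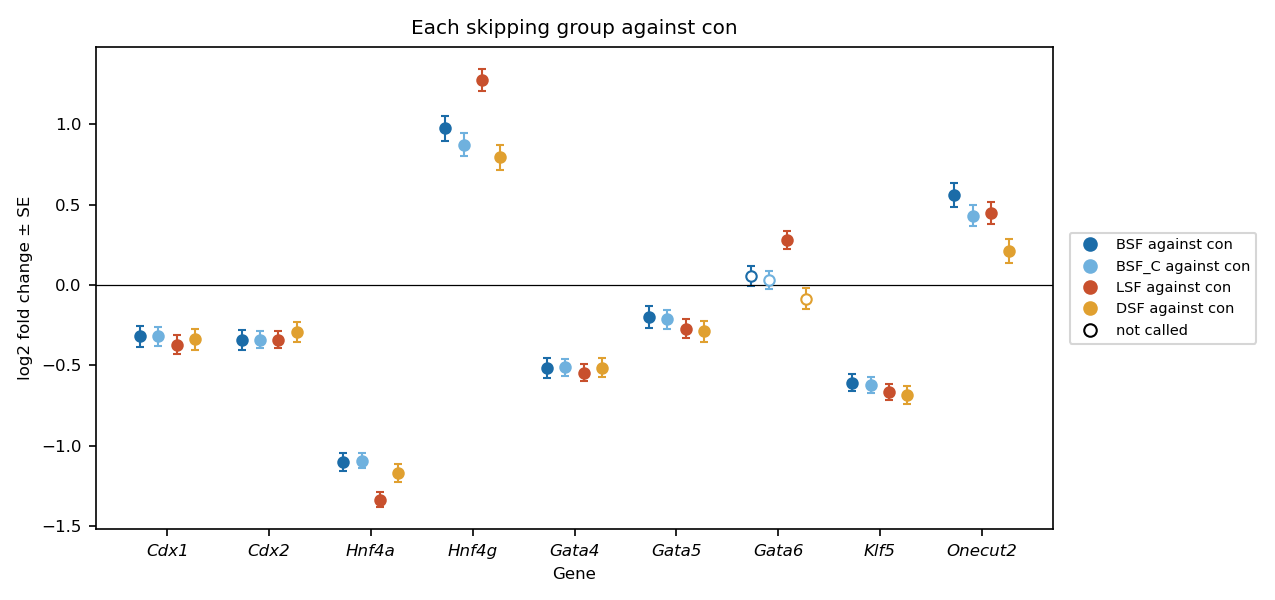
Log2 fold change of each factor in BSF, BSF_C, LSF and DSF against con on the vertical axis, with its SE; filled points passed an adjusted p of 0.05 in edgeR's test and open points did not. Hnf4a lies between -1.33 and -1.09 and Hnf4g between 0.79 and 1.28, and LSF gives the outermost value of each.

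The pair of HNF4 genes moved in opposite directions. Hnf4a stood at 3309, 3174 and 3696 CPM in con. It stood at 1568 and 1596 CPM in BSF, at 1638, 1599 and 1535 CPM in BSF_C, at 1376, 1332 and 1329 CPM in LSF and at 1533 and 1487 CPM in DSF. Every con library was above every other library, and every LSF library was below the rest. BSF and BSF_C were the only neighbouring groups whose values overlapped.

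Relative to con, the log2 fold change of Hnf4a was -1.10 ± 0.05 (SE) for BSF, -1.09 ± 0.05 for BSF_C, -1.33 ± 0.05 for LSF and -1.17 ± 0.05 for DSF. The SE is the change without its sign divided by the square root of the test's F. The edgeR adjusted p was 4.86e-25 for BSF, 1.19e-27 for BSF_C, 1.30e-31 for LSF and 4.66e-26 for DSF. Among all tested genes, between 4.66% and 7.36% had a lower value than Hnf4a in these 4 comparisons.

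Hnf4g stood at 128, 145 and 105 CPM in con. It stood at 246 and 249 CPM in BSF, at 223, 226 and 244 CPM in BSF_C, at 285, 317 and 315 CPM in LSF and at 217 and 221 CPM in DSF. The order was LSF, BSF, BSF_C, DSF and con, and no neighbouring groups overlapped. Its log2 fold change relative to con was 0.97 ± 0.07 for BSF, 0.87 ± 0.07 for BSF_C, 1.28 ± 0.07 for LSF and 0.79 ± 0.08 for DSF. The edgeR adjusted p was 5.68e-17 for BSF, 1.22e-16 for BSF_C, 1.43e-23 for LSF and 1.51e-13 for DSF. Removing trends with GC content and gene length, which puts the GC-poor Hnf4g (41.5% GC) beside genes of like composition, lowered these values to 0.49, 0.43, 0.89 and 0.40, all still called.

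Within a library, the ratio of Hnf4g to Hnf4a counts needs no scaling between libraries. It was 0.0387, 0.0455 and 0.0284 in con, 0.157 and 0.156 in BSF and 0.136, 0.142 and 0.159 in BSF_C. It was 0.207, 0.238 and 0.237 in LSF and 0.141 and 0.149 in DSF. The con libraries were lowest and the LSF libraries highest, with no overlap with the groups between them. Per exon length, Hnf4g made up 6.43% ± 1.39 (SD, n = 3) of the HNF4 pair in con, 22.3% ± 0.0672 (n = 2) in BSF and 21.1% ± 1.35 (n = 3) in BSF_C. The share was 29.4% ± 1.64 (n = 3) in LSF and 20.6% and 21.4% in the DSF libraries. The summed level of the pair was 751 CPM per kilobase in con and between 395 and 422 in the means of the other groups.

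**Figure D3:**
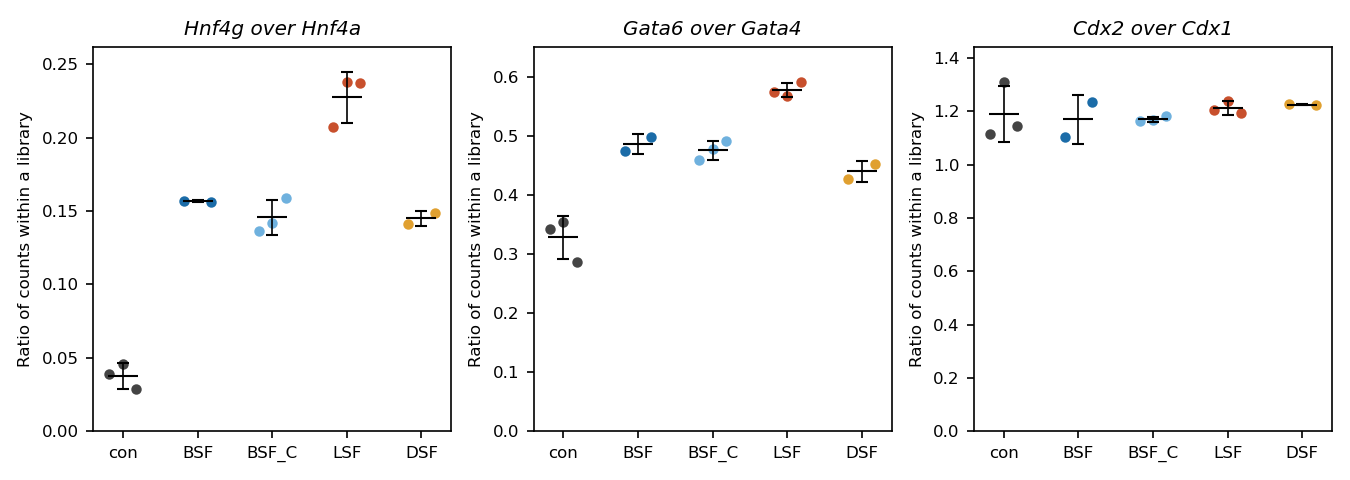
Ratio of counts of 2 family members within each library on the vertical axis, by group on the horizontal axis, with group mean and SD (n = 2 or 3). Hnf4g over Hnf4a runs from 0.0284 in a con library to 0.238 in an LSF library and Gata6 over Gata4 from 0.287 to 0.591, while Cdx2 over Cdx1 stays between 1.11 and 1.31.

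The CDX genes were lower than con by a similar amount in every feeding group. Cdx2 stood at 387, 439 and 463 CPM in con, at 339 and 337 CPM in BSF, at 353, 330 and 335 CPM in BSF_C, at 349, 335 and 335 CPM in LSF and at 355 and 347 CPM in DSF. Its con libraries were the highest, and the other 4 groups overlapped their neighbours. The log2 fold change against con was -0.34 ± 0.06, -0.34 ± 0.05, -0.34 ± 0.05 and -0.29 ± 0.06 in BSF, BSF_C, LSF and DSF, with an edgeR adjusted p of at most 4.40e-05.

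Cdx1 stood at 347, 335 and 404 CPM in con, at 307 and 273 CPM in BSF, at 304, 283 and 284 CPM in BSF_C, at 289, 270 and 281 CPM in LSF and at 289 and 283 CPM in DSF. The con libraries were again above all others. The log2 fold change against con was -0.32 ± 0.07, -0.32 ± 0.06, -0.37 ± 0.06 and -0.34 ± 0.07, with an edgeR adjusted p of at most 2.70e-05. The size depended on the scaling, though the call did not. In BSF it was -0.14 for Cdx1 and -0.17 for Cdx2 with library totals alone. With GC and length trends removed it was -0.92 for the GC-rich Cdx1 (62.1% GC) and -0.48 for Cdx2. The ratio of Cdx2 to Cdx1 counts overlapped between con (1.11 to 1.31) and each other group (1.11 to 1.24 over all of them).

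Among the GATA genes, Gata4 was the most abundant and fell against con in each group. Gata4 stood at 551, 512 and 592 CPM in con, at 395 and 377 CPM in BSF, at 397, 393 and 371 CPM in BSF_C, at 380, 386 and 369 CPM in LSF and at 400 and 373 CPM in DSF. All con libraries were above all others, which overlapped one another. Its log2 fold change was -0.51 ± 0.06 for BSF, -0.51 ± 0.05 for BSF_C, -0.54 ± 0.05 for LSF and -0.51 ± 0.06 for DSF, with an edgeR adjusted p of at most 9.29e-11. With library totals alone the change was -0.34 in BSF.

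Gata5 stood at 169, 182 and 189 CPM in con, at 161 and 153 CPM in BSF, at 159, 152 and 155 CPM in BSF_C, at 158, 145 and 144 CPM in LSF and at 145 and 150 CPM in DSF. The con libraries were the highest, by a small margin over BSF. Gata5 changed by -0.20 ± 0.07 for BSF (edgeR adjusted p = 0.00770), -0.21 ± 0.06 for BSF_C (0.00142), -0.27 ± 0.06 for LSF (8.15e-05) and -0.29 ± 0.07 for DSF (1.92e-04). With library totals alone it was -0.02 in BSF (adjusted p = 0.759), -0.05 in BSF_C (0.455) and -0.13 in DSF (0.0629), so those calls were lost. In BSF the call was also lost without BSF replicate 2, at -0.16 (edgeR adjusted p = 0.0931), and with only the groups compared in the fit, at -0.17 (0.0622).

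Gata6 behaved apart from its relatives. It stood at 189, 182 and 170 CPM in con, at 187 and 188 CPM in BSF, at 182, 187 and 182 CPM in BSF_C, at 219, 219 and 218 CPM in LSF and at 171 and 169 CPM in DSF. The LSF libraries were above all others, and con spanned the remaining groups except the lowest DSF library. Gata6 rose in LSF by 0.28 ± 0.06 (edgeR adjusted p = 1.99e-05). It was not called in BSF (0.06 ± 0.06, edgeR adjusted p = 0.416), in BSF_C (0.03 ± 0.06, 0.645) or in DSF (-0.08 ± 0.06, 0.244). The BSF and BSF_C values became called at 0.23 and 0.20 with library totals alone and at 0.22 and 0.16 with GC and length trends removed, and the DSF value turned to 0.07 and 0.02 under these, uncalled. Without con replicate 3 the DSF value was -0.13 (edgeR adjusted p = 0.0493) and the BSF_C value -0.01.

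The ratio of Gata6 to Gata4 counts was 0.342, 0.355 and 0.287 in con, 0.473 and 0.498 in BSF and 0.459, 0.477 and 0.490 in BSF_C. It was 0.575, 0.568 and 0.591 in LSF and 0.427 and 0.452 in DSF. Con was lowest and LSF highest, without overlap. GATA factors also act in heart muscle, whose 10 markers summed to between 93.5 and 95.4 CPM in BSF, 88.7 and 104 CPM in BSF_C, 238 and 280 CPM in LSF and 259 and 266 CPM in DSF. The part of such RNA in the levels of Gata4, Gata5 and Gata6 was not tested. Zfpm1, which encodes the GATA cofactor FOG1, was between 102 and 110 CPM in con and between 267 and 362 CPM elsewhere. Its log2 fold change was 1.70 ± 0.07 for BSF, 1.68 ± 0.06 for BSF_C, 1.37 ± 0.06 for LSF and 1.36 ± 0.07 for DSF (edgeR adjusted p at most 4.73e-25).

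Klf5 stood at 685, 699 and 714 CPM in con, at 453 and 465 CPM in BSF, at 452, 458 and 455 CPM in BSF_C, at 443, 456 and 425 CPM in LSF and at 429 and 442 CPM in DSF. Con was above all others, which overlapped their neighbours. Klf5 changed by -0.61 ± 0.05 for BSF, -0.62 ± 0.05 for BSF_C, -0.66 ± 0.05 for LSF and -0.68 ± 0.06 for DSF on the log2 scale, with an edgeR adjusted p of at most 2.29e-14. KLF5 is also a factor of basal keratinocytes, and the keratinocyte marker sum given above was likewise highest in con; its part in the Klf5 difference was not tested.

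Onecut2 stood at 141, 146 and 118 CPM in con, at 190 and 209 CPM in BSF, at 168, 187 and 192 CPM in BSF_C, at 180, 191 and 183 CPM in LSF and at 154 and 159 CPM in DSF. DSF lay between con and the other 3 groups without overlapping either, while BSF, LSF and BSF_C overlapped. The log2 fold change against con was 0.56 ± 0.07 in BSF, 0.43 ± 0.07 in BSF_C and 0.45 ± 0.07 in LSF (edgeR adjusted p at most 9.63e-08). In DSF it was 0.21 ± 0.07 (edgeR adjusted p = 0.0108). With GC and length trends removed, the change was 0.18, 0.12 and 0.16 in BSF, BSF_C and LSF, still called, and -0.01 in DSF, where the sign turned (adjusted p = 0.871). The DSF call was also lost without con replicate 3, at 0.13 (edgeR adjusted p = 0.0911), and without 1 of the DSF libraries, at 0.18 (0.0957). Neuron markers, which ONECUT genes accompany in other tissues, summed to between 5.07 and 6.45 CPM in con, 56.8 and 65.7 CPM over BSF and BSF_C, 38.0 and 45.4 CPM in LSF and 34.3 and 36.8 CPM in DSF. Their part in the Onecut2 values was not tested. In bulk RNA, fewer cells that express a gene and less RNA per cell cannot be told apart, for Onecut2 and for every member above.

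The comparisons between feeding groups set no library against con, though the con libraries entered the fit and its estimate of the spread. The feeding groups also differed in markers of other cell types, whose part in the members' values was not tested. BSF_C and BSF, which share the breakfast skipping pattern by their labels, gave no called member among the 9, where 0.105% of tested genes were higher and 0.028% lower. Without adjustment, none of the 9 had a p under 0.05 in edgeR's test, and none was called by DESeq2 or limma-voom. The furthest member was Onecut2 at -0.13 ± 0.07, followed by Hnf4g at -0.10 ± 0.07, and the other 7 lay between -0.03 and 0.01. Of the marker lists, the stromal collagen genes Col1a1 and Col1a2 and the kidney tubule gene Gpx3 (1.09 ± 0.15) were called higher in BSF_C, where the kidney markers summed to between 59.2 and 130 CPM, against 50.3 and 59.9 CPM in BSF.

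BSF against LSF gave 3 called members. Hnf4a was higher in BSF by 0.23 ± 0.05 (edgeR adjusted p = 4.31e-04), Hnf4g lower, at -0.30 ± 0.07 (5.94e-04) and Gata6 lower, at -0.22 ± 0.06 (0.00413). Of all tested genes, 13.4% were higher in BSF and 15.9% lower, so 1 member higher and 2 lower is near the background. With library totals alone, 62.9% of called genes were higher rather than 45.8%, and 6 members were called, 4 of them higher and 2 lower. Each of the 3 calls held under every alternative run, including the omission of each library. The other 6 members lay between -0.01 and 0.11, the last value being that of Onecut2. Lower in BSF were 6 of 8 tested heart muscle, 5 of 6 fibroblast and stromal, 5 of 9 leukocyte and 3 of 4 smooth muscle markers. Of these lists, only 1 leukocyte marker was higher in BSF. Of 8 neuron markers, 3 were higher in BSF and none lower.

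BSF against DSF gave 1 called member, Onecut2, which was higher in BSF by 0.35 ± 0.08 (edgeR adjusted p = 8.32e-04). Of all tested genes, 5.77% were higher and 6.26% lower in this comparison. Without BSF replicate 2 the Onecut2 difference was 0.28 (edgeR adjusted p = 0.0665). With the 10 libraries outside con in the fit, 3 members were called. Hnf4g at 0.18 ± 0.08 and Gata6 at 0.14 ± 0.07 missed the threshold in the fit of all libraries. Lower in BSF than in DSF were 6 of 8 tested heart muscle, 5 of 6 fibroblast and stromal and 4 of 9 leukocyte markers. None of these lists had a higher one, while 3 of 8 neuron markers were higher in BSF and none lower.

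LSF against DSF gave 4 called members, where 8.97% of tested genes were higher in LSF and 6.91% lower. Hnf4g was higher in LSF by 0.48 ± 0.07 (edgeR adjusted p = 3.36e-07) and Gata6 by 0.36 ± 0.06 (8.26e-06). Onecut2 was higher by 0.24 ± 0.07 (0.0133) and Hnf4a lower, at -0.17 ± 0.05 (0.0200). Hnf4g and Gata6 were called under every alternative run, including the omission of each library. Onecut2 lost its call without either DSF library (edgeR adjusted p = 0.171 and 0.0711) or LSF replicate 2 (0.0758), and with library totals alone (0.0837). Hnf4a lost its call without either DSF library (edgeR adjusted p = 0.214 and 0.0656) or LSF replicate 2 (0.0843) or 3 (0.0832). With library totals alone, 38% of called genes were higher in LSF rather than 56.5%. No heart muscle, leukocyte or neuron marker was called in LSF against DSF. Of 6 fibroblast and stromal markers, 1 was higher in LSF, and of 4 tested smooth muscle markers 1 was higher and 1 lower. Cdx1, Cdx2, Gata4, Gata5 and Klf5 were not called in any comparison between feeding groups in the fit of all libraries.

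**Figure D4:**
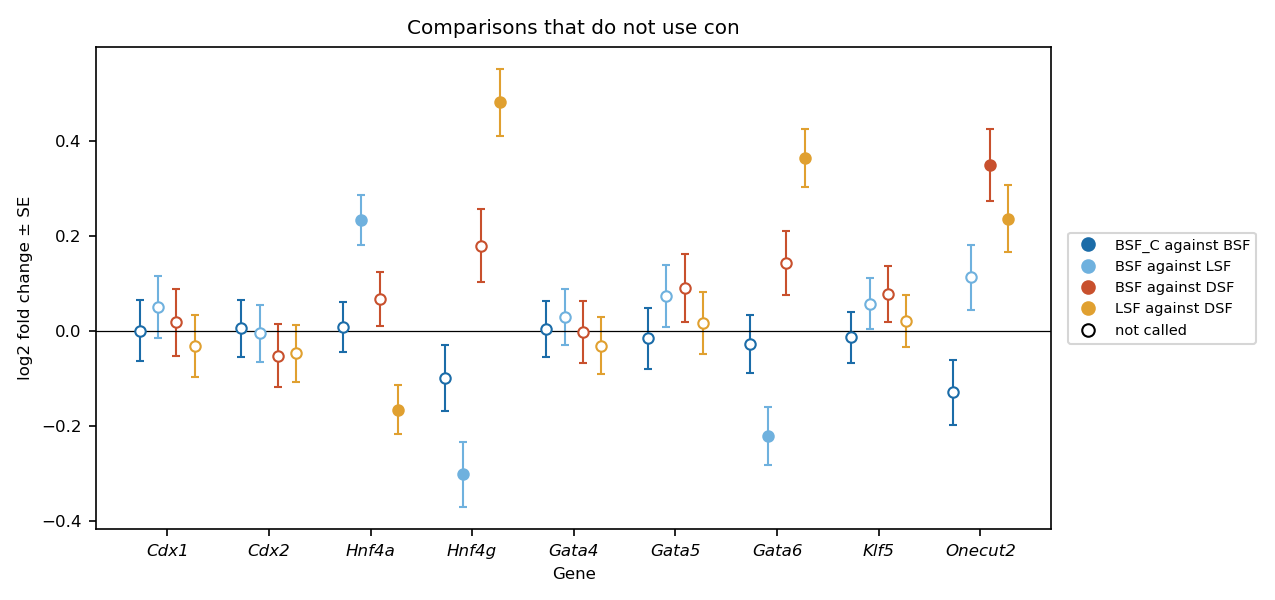
Log2 fold change of each factor between feeding groups on the vertical axis, with its SE; filled points passed an adjusted p of 0.05 in edgeR's test. The filled points belong to Hnf4a, Hnf4g, Gata6 and Onecut2, and the widest difference is that of Hnf4g in LSF against DSF, at 0.48.

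Over the 10 libraries outside con, some pairs of members varied together in log2 CPM, and the pairs furthest from 0 are given here. The Pearson r was 0.944 for Hnf4g with Gata6, -0.862 for Hnf4a with Hnf4g and -0.773 for Hnf4a with Gata6. It was -0.771 for Cdx2 with Onecut2 and 0.704 for Cdx1 with Gata5. Some other pairs lay near 0, such as Hnf4a with Onecut2 (-0.024) and Gata6 with Klf5 (-0.071). These are descriptions over 10 libraries of 4 groups, with the 3 LSF libraries at one end for Hnf4a, Hnf4g and Gata6. Over the 7 libraries outside con and LSF, an alternative chosen after seeing the data, the sign turned for Hnf4a with Hnf4g (0.191) and for Hnf4a with Gata6 (0.749). The r was then 0.712 for Hnf4g with Gata6, -0.811 for Cdx2 with Onecut2 and 0.635 for Cdx1 with Gata5. The highest values over those 7 libraries were 0.914 for Hnf4g with Onecut2 and 0.908 for Klf5 with Onecut2.

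The genes whose pattern over the 10 libraries outside con was most like a member were taken as the highest r among 10522 genes with a mean of at least 5 CPM. These r values were not recomputed without the LSF libraries, which lie at one end for Hnf4a, Hnf4g and Gata6. For Hnf4a they were Tubb5 (a beta tubulin, r = 0.989), Fkbp4 (a cochaperone of steroid receptors, 0.984) and Jpt1 (0.982). For Hnf4g they were Ncor1 (a nuclear receptor corepressor, 0.986), Bche (butyrylcholinesterase, 0.984) and Arhgap32 (0.984). For Gata6 they were Selenop (selenoprotein P, 0.994), Ccdc152 (0.993) and Guca2b (uroguanylin, 0.991). Selenop and Ccdc152 overlap on opposite strands, sharing 439 exon bases, so they may hold the same reads. For Onecut2 they were Frk (a tyrosine kinase, 0.964), Arl5a (0.933) and Lpgat1 (0.931). The nearest gene was Cds2 for Cdx1 (0.955), Uqcrfs1 for Cdx2 (0.932), Ylpm1 for Klf5 (0.922), Dusp7 for Gata5 (0.912) and Nabp2 for Gata4 (0.877).

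Of 22 other transcription factors of the intestine, 5 were higher and 13 lower in BSF against con, with a median log2 fold change of -0.44 beside 0.11 for all tested genes. Of the 22, 5 were higher and 13 lower for BSF_C, and 5 higher and 14 lower for LSF and for DSF. Across these comparisons with con, 36.6% to 39.8% of tested genes were higher and 31.1% to 33.2% lower. Creb3l3, a membrane-bound activator of lipid genes, was between 95.0 and 112 CPM in con and between 329 and 336 CPM in LSF. Its log2 fold change was 1.10 ± 0.07 for BSF, 1.17 ± 0.06 for BSF_C, 1.67 ± 0.06 for LSF and 0.92 ± 0.07 for DSF. Maf, which acts in villus enterocytes, rose by 1.64 ± 0.06 in LSF and 1.43 ± 0.07 in DSF. Isx, a homeobox repressor of carotenoid uptake genes, was at -1.09 ± 0.07 for BSF, -1.09 ± 0.06 for BSF_C, -1.04 ± 0.06 for LSF and -1.09 ± 0.07 for DSF, all called by edgeR.

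In BSF against LSF, 4 of these 22 were higher and 7 lower, where 13.4% of tested genes were higher and 15.9% lower. In LSF against DSF 6 were higher and 2 lower, where 8.97% of tested genes were higher and 6.91% lower. Klf4, a factor of differentiating epithelium, was higher in LSF than in DSF by 0.56 ± 0.07, and Creb3l3 by 0.75 ± 0.06. Elf3, an epithelial ETS factor, was lower in LSF, at -0.34 ± 0.06 (edgeR adjusted p = 3.36e-05). In BSF against DSF none was higher and 2 were lower, Maf at -0.60 ± 0.07 and Elf3 at -0.25 ± 0.07. There 5.77% of tested genes were higher and 6.26% lower. None of the 22 was called in BSF_C against BSF.

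Of 10 enterocyte genes known as CDX2 targets, 8 were higher and 1 lower in BSF, BSF_C and DSF against con, and 9 higher and 1 lower in LSF. The lower one was Isx. The list's median log2 fold change was 1.46 for BSF, 1.50 for BSF_C, 1.73 for LSF and 1.50 for DSF, beside all-gene medians of 0.10 to 0.12. Over all tested genes, 36.6% to 39.8% were higher and 31.1% to 33.2% lower. Lct, which encodes lactase, was between 128 and 160 CPM in con and between 1681 and 1752 CPM in LSF. Its change was 3.46 ± 0.06 for BSF, 3.42 ± 0.06 for BSF_C, 3.62 ± 0.06 for LSF and 3.25 ± 0.06 for DSF (edgeR adjusted p at most 1.37e-43). Alpi, intestinal alkaline phosphatase, rose by 2.32 ± 0.05 in LSF against con and was higher in LSF than in DSF by 0.72 ± 0.05.

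Of 17 enterocyte genes known as HNF4 targets, 15 were higher and 1 lower in BSF and in BSF_C against con. In LSF 16 were higher and 1 lower, and in DSF 15 were higher and 2 lower. The median log2 fold change was 2.06, 2.05, 2.52 and 2.03 in BSF, BSF_C, LSF and DSF. Over all tested genes, 36.6% to 39.8% were higher and 31.1% to 33.2% lower. Apoa4, an apolipoprotein of chylomicrons, was between 910 and 1089 CPM in con, between 14012 and 14422 CPM in LSF and between 9287 and 9475 CPM in DSF. Cpt1a, the carnitine transferase of fatty acid oxidation, was lower in each comparison, from -1.72 in BSF_C to -1.52 in LSF; it was named after its values were seen.

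Between feeding groups, 16 of the 17 were higher in LSF than in DSF and none lower, with a median of 0.52 beside 0.00 for all tested genes. The apolipoprotein gene Apoa1 differed by 0.76 ± 0.05. In BSF against LSF, 1 of the 17 was higher and 13 were lower, with a median of -0.30. The higher one was Fabp1, a fatty acid-binding protein gene, at 0.37 ± 0.08. In BSF against DSF, 6 were higher and 1 lower, with Apoa4 at 0.58 ± 0.05. Of the CDX2 targets, 8 of 10 were higher in LSF than in DSF, 7 of 10 lower in BSF than in LSF and 2 of 10 higher in BSF than in DSF, with none called the other way. Over all tested genes, 8.97% were higher and 6.91% lower in LSF against DSF. The shares were 13.4% and 15.9% in BSF against LSF and 5.77% and 6.26% in BSF against DSF.

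Crypt and villus genes moved alongside these lists. The 12 crypt and stem cell genes summed to between 4745 and 5010 CPM in con, 3091 and 3304 CPM over BSF and BSF_C, 2983 and 3023 CPM in DSF and 2380 and 2394 CPM in LSF. The 7 mature villus genes summed to between 1247 and 1346 CPM in con, 3155 and 3343 CPM over BSF and BSF_C, 3064 and 3127 CPM in DSF and 4509 and 4614 CPM in LSF. The villus list shares Krt20 and Alpi with the CDX2 targets. Single genes weighed heavily in both sums. Olfm4 averaged 2814.5 CPM in con and 1301.5 CPM in LSF, and Alpi 598 CPM in con and 2994 CPM in LSF. Not all crypt genes followed the order of the sums. Lgr5 averaged 19.1 CPM in LSF, above BSF_C (14.6) and DSF (15.1), and Ascl2 averaged 5.49 CPM in con and between 18.5 and 23.9 CPM in the other groups. Nor did all villus genes follow it. Enpep averaged 468 CPM in con, 414 CPM in BSF and 416 CPM in BSF_C, and Krt20 averaged 684 CPM in BSF_C and 643 CPM in LSF. The group order of the crypt sums was that of Hnf4a for con at the top and LSF at the bottom, and the part of the mix of crypt and villus cells in the members' levels was not tested.

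Of the crypt genes, 2 were higher and 8 lower in BSF and in BSF_C against con, 2 higher and 10 lower for LSF, and 2 higher and 9 lower for DSF. The list's median log2 fold change lay between -0.85 and -0.64 in these comparisons, beside 0.10 to 0.12 for all tested genes, of which 36.6% to 39.8% were higher and 31.1% to 33.2% lower. The falling ones included Ephb2, a receptor of crypt cells, at -1.61 ± 0.07 in BSF and -1.93 ± 0.06 in LSF, and Ccnd1, cyclin D1, at -1.17 ± 0.07 and -1.75 ± 0.06. Top2a, a topoisomerase of dividing cells, was higher in BSF at 1.68 ± 0.10. In LSF against DSF, 7 of 12 were lower and none higher, among them Olfm4, a crypt base gene, at -0.41 ± 0.05. In BSF against LSF, 8 of 12 were higher and none lower, with Olfm4 at 0.46 ± 0.05. The list medians were -0.26 and 0.35 in these 2 comparisons, beside 0.00 and 0.01 for all tested genes. The shares of tested genes were 8.97% higher and 6.91% lower in LSF against DSF, and 13.4% and 15.9% in BSF against LSF.

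**Figure D5:**
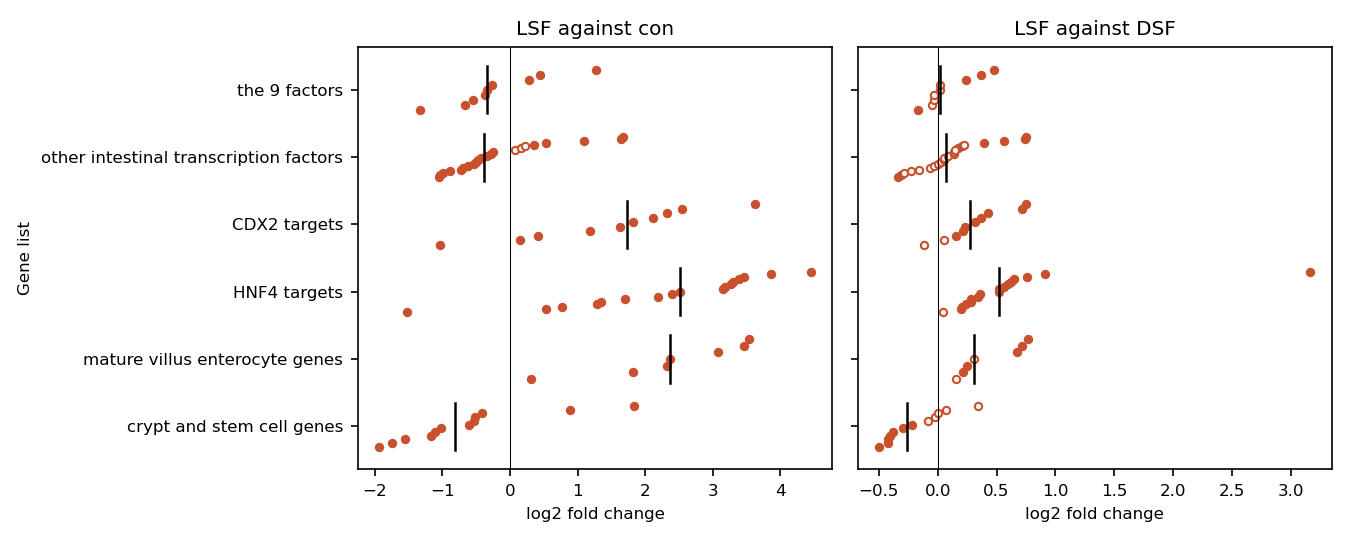
Log2 fold change of each tested gene of 6 lists in LSF against con and in LSF against DSF, with 1 row of points for each list; filled points passed an adjusted p of 0.05 in edgeR's test and the bars mark the list medians. The HNF4 targets have medians of 2.52 and 0.52, and the crypt genes of -0.82 and -0.26.

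Regional genes did not form a single pattern. Of 7 ileal genes, 4 passed the filter on low counts. Slc10a2, Fabp6 and Fgf15 did not, with at most 0.921 CPM in any library. Against con, 2 of the 4 were higher and 1 lower in BSF, 2 higher in BSF_C and DSF and 4 higher in LSF. The shares over all tested genes were 36.6% to 39.8% higher and 31.1% to 33.2% lower in these comparisons. Cubn, a receptor for intrinsic factor, stood between 0.230 and 0.624 CPM in con, 35.7 and 38.9 CPM in LSF and 10.0 and 15.2 CPM in DSF. It was higher in LSF than in DSF by 1.57 ± 0.15 (edgeR adjusted p = 1.24e-12). Of 7 proximal genes, 4 were higher and 1 lower in BSF, BSF_C and LSF, and 3 higher and 2 lower in DSF, counts near the shares of all tested genes given above. The median of the proximal list against con was lowest for BSF at 0.22, followed by 0.26 for BSF_C, 0.43 for DSF and 0.95 for LSF. In LSF against DSF, 4 of the 7 were higher and none lower, with Slc5a1, the sodium-glucose cotransporter, at 0.52 ± 0.05. The proximal list shares Lct with the CDX2 targets, Fabp1 with the HNF4 targets and Pdx1 with the other transcription factors. There 8.97% of tested genes were higher and 6.91% lower.

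Genes of neighbouring organs were mostly too low to test. Of 11 gastric genes 2 passed the filter, and of 6 colonic genes 2 passed. Sox2, a foregut factor that CDX2 opposes, had no count in con and stood between 0.132 and 2.09 CPM elsewhere. Aqp8, a colonic water channel, stood between 0.206 and 0.832 CPM in con, 27.3 and 31.4 CPM over BSF and BSF_C, 9.51 and 13.6 CPM in LSF and 7.12 and 10.3 CPM in DSF. Aqp8 was higher in BSF than in LSF by 1.36 ± 0.15 and higher in BSF than in DSF by 1.71 ± 0.17, both called by edgeR.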

How the data were processed

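Counts per gene were deposited by the authors as whole numbers without normalization. The submitters' processing notes name the builds GRCm38 and mm10 and the tools STAR 2.7.2e, DESeq2 1.32.0, cutadapt 2.9 and FastQC 0.11.8. Which annotation and strand setting the counting used, and how multimapped reads were treated, is not given in the sources used here. Symbols matched GENCODE M21 for 99.2% of rows. Genes were kept by edgeR's filterByExpr (14300 genes, 99.9% of counts), scaled by trimmed means (TMM) and tested in edgeR 4.0.16 under R 4.3.3, two-sided, with a group term alone (8 residual degrees of freedom) and Benjamini-Hochberg adjustment over all tested genes at 0.05. CPM per kilobase used the length of the union of exons. Log2 CPM for correlations used a prior count of 2. The members and gene lists were chosen with earlier results of these data known. Named genes were the members, up to 3 called genes with the smallest p of each list in each comparison, and the 3 genes with the highest r to each member; Cpt1a was named after its values were seen, and some genes that the rule would name are not reported here. Alternatives were other scalings, DESeq2 1.42.0, limma-voom (limma 3.58.1), no filter, fewer groups in the fit, GC and length trends removed by lowess (span 0.3), a replicate block and the omission of each library. The procedure was tested on simulated data. The DSF columns are numbered 2 and 3 and the DSF labels 1 and 2, so DSF libraries have no replicate number here. Precision is limited by 2 or 3 libraries a group and by totals of 4851239 to 8589351 counts.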

Additional observations from a re-analysis of the deposited data

How the results depend on the processing

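Of 544 recomputed values of called members, 527 kept their direction and call, 16 lost the call and 1 turned, which was Onecut2 in DSF against con, at -0.012 with GC content and gene length trends removed. The number of called members moved from 3 to 6 in BSF against LSF with library totals alone. In BSF against DSF it moved from 1 to 2 with GC and length trends removed, to 2 with only the groups compared and to 3 with the 10 libraries outside con. The number of called genes in BSF_C against BSF moved from 19 to 30 without a filter, 2 with DESeq2, 4 with limma-voom, 32 with only the groups compared and 29 with the 10 libraries outside con, and in BSF against DSF from 1720 to 1111 with DESeq2.

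With 1 library left out in turn, called genes ranged from 12 (without BSF_C replicate 2) to 23 in BSF_C against BSF (19 with all), from 2557 to 3493 in BSF against LSF (4190; 2557 and 2583 without either BSF library), from 798 to 920 in BSF against DSF (1720; low without any library of either group) and from 1288 to 1866 in LSF against DSF (2271; lowest without 1 of the DSF libraries). Called members ranged from 0 (without BSF replicate 2) to 1 in BSF against DSF and from 2 (without LSF replicate 2, or without either DSF library) to 4 in LSF against DSF. Where 1 library of BSF or DSF is left, it is assumed to vary like the other groups.

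Uncalled values near 0 also changed sign, and the cause was not tested. With library totals alone, Gata6 (0.0731) in DSF against con, Cdx1 (-0.0081), Cdx2 (-0.00334), Hnf4a (-0.00116) and Gata4 (-0.0051) in BSF_C against BSF, Cdx2 (0.0711) in BSF against LSF, Gata4 (0.015) in BSF against DSF and Gata5 (-0.0424) and Klf5 (-0.0388) in LSF against DSF turned. Without a filter, Cdx1 (-0.00669), Cdx2 (-0.00179) and Gata4 (-0.00354) in BSF_C against BSF turned. With GC and length trends removed, Gata6 (0.0198) in DSF against con, Cdx1 (-0.0386), Cdx2 (-0.0376), Hnf4a (-0.018) and Gata4 (-0.0325) in BSF_C against BSF, Cdx2 (0.0599) in BSF against LSF and Cdx2 (0.0279) and Gata4 (0.0798) in BSF against DSF turned. With only the groups compared, Cdx1 (-0.00163) in BSF_C against BSF turned. With the 10 libraries outside con, Cdx1 (-0.000333) in BSF_C against BSF turned. Leaving out 1 library in turn gave these ranges, with a change of sign: Gata6 (-0.011 to 0.0625) in BSF_C against con. Others were Cdx1 (-0.0846 to 0.085), Cdx2 (-0.0245 to 0.0254), Hnf4a (-0.0146 to 0.0333), Gata4 (-0.0319 to 0.0366), Gata5 (-0.0576 to 0.0223) and Klf5 (-0.0336 to 0.0041) in BSF_C against BSF. Others were Cdx1 (-0.0349 to 0.134), Gata4 (-0.00444 to 0.0633) and Cdx2 (-0.0158 to 0.0143) in BSF against LSF. Others were Cdx1 (-0.0682 to 0.101) and Gata4 (-0.0546 to 0.0502) in BSF against DSF. Others were Gata4 (-0.084 to 0.0209), Gata5 (-0.0256 to 0.0399) and Klf5 (-0.00361 to 0.0462) in LSF against DSF.

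The replicate numbers of con, BSF, BSF_C and LSF did not pair libraries: same-numbered libraries of different groups deviated together with r between -0.067 and 0.03 (15 pairs), against -0.043 to 0.052 for other numbers (30 pairs). With the replicate number as a block, called genes were 9729 in BSF against con, 10284 in BSF_C against con, 10136 in LSF against con, 18 in BSF_C against BSF and 3598 in BSF against LSF, and the called members were 8, 8, 9, 0 and 3, as many as without it. Under the block Cdx1 (-0.0201), Cdx2 (-0.00552) and Hnf4a (-0.00201) in BSF_C against BSF and Cdx2 (0.00451) in BSF against LSF changed sign, uncalled. No paired analysis was possible for DSF because its columns are numbered 2 and 3 and its labels 1 and 2, which ties neither column to a label. Low counts limit Sox2, and every member stood above 100 CPM in every library.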
